A study of Mus musculus with 18 samples.

Results

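The 35 microglial genes described here were taken by their symbols from a list chosen with earlier results of these data known. All 35 were found among the 48440 genes of the expression table. Microglia are the resident macrophages of the brain. They survive on signalling through the receptor CSF1R, sense fractalkine and nucleotides through CX3CR1 and P2RY12, and take up debris and synaptic material with the help of complement C1q, the integrin CD11b (Itgam), and the receptor pair TREM2 and TYROBP. The transcription factors PU.1 (Spi1), IRF8 and SALL1 maintain their identity.

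The series used Diversity Outbred mice, an outbred stock derived from several inbred strains, and sorted the animals by short-term memory into high and low performers. RNA-seq libraries of bulk tissue were made from PFC (prefrontal cortex) and from the regions labelled MDTH and HPF, with 3 libraries of high performers and 3 of low performers in each, 18 in all. The labels give no treatment, age or sex, and no engineered allele. They do not say that the 3 libraries of a group came from separate animals, so p-values measure the spread between libraries.

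The deposited values are normalized counts, and every value below is on that scale unless stated otherwise. By estimate, HPF libraries held 76705500 to 88633900 reads, MDTH libraries 42941000 to 47535100 and PFC libraries 41156200 to 48838300. The microglial genes took 0.126% to 0.288% of all normalized counts in a library. Some PFC and HPF libraries stood apart by choroid plexus genes such as Ttr, the transthyretin made by the epithelium of the ventricles: the summed level of the 8 listed genes was 217445 in PFC high replicate 1, 182752 in PFC low replicate 2, 119209 in PFC low replicate 3 and 227382 in HPF high replicate 2, against 8718 to 25234 in the other libraries. The library names carry numbers, and 44, 88 and 165 recur in all 3 tissues of the high performers. In PFC and MDTH the names of the high performer libraries are also written in another style than those of the low performers, and what that style stands for cannot be told apart from performance in these tissues. The share of counts from mitochondrial genes also went with the groups, at 5.25% to 5.59% in PFC high and 8.25% to 8.79% in PFC low performers, 5.53% to 6.40% against 6.52% to 8.52% in MDTH, and 6.51% to 8.63% against 4.66% to 6.25% in HPF, and its part in the results was not tested.

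The list was first checked against the tissue. Every member was detected in each library, including the homeostatic microglial markers Tmem119 and P2ry12, which macrophages elsewhere in the body largely lack. Normalized counts per kilobase of exon, the scale on which genes can be compared, averaged 931 for P2ry12, 772 for Csf1r, 524 for Cx3cr1 and 399 for Tmem119 over the 18 libraries. The protease inhibitor Cst3 (34982 per kilobase) and the lysosomal protease Ctsd (7314 per kilobase) were far above the others, and both are made by many brain cells. The lowest were Ptprc (6.7 per kilobase), which encodes the leukocyte antigen CD45, and Irf8 (24.5 per kilobase). Blood leukocyte genes were mixed. Of 12 lymphocyte genes, 3 passed the filter on low values in PFC and 1 in MDTH and in HPF. The T cell gene Cd3e did not exceed 5.2 in any library, but Trbc2, a T cell receptor constant region gene, had 1089, 1413 and 1208 against 961, 1177 and 512 in PFC high and low libraries, and at most 44.6 elsewhere. The summed level of the lymphocyte genes was 1211 to 1550 in PFC high, 684 to 1397 in PFC low and 21.3 to 166 elsewhere. Most of the sum in each PFC library came from Trbc2 alone, so it does not show how many lymphocytes were present. The 12 neutrophil and monocyte genes summed to 24.4 to 199.6, with S100a8 at no more than 8.7. The part of any blood leukocytes in the results was not tested. Border macrophage genes were present, with Mrc1, the mannose receptor of perivascular and meningeal macrophages, between 85.0 and 588 normalized counts. In bulk tissue, fewer cells of a type and less RNA per cell cannot be told apart.

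In PFC, 5 of the 35 microglial genes fell in high performers and none rose. They were Itgam, the P2Y receptor gene P2ry12, the complement genes C1qa and C1qb, and the lysosomal membrane protein gene Laptm5, with log2 differences (high minus low) from -0.61 to -0.999. The call was an adjusted p under 0.05 in limma over all genes tested, and it took 5.85% of them in either direction, 3.22% higher and 2.63% lower. An unadjusted p under 0.05 was reached by 15 members and by 24.1% of all genes. In all, 31 of the 35 log2 differences were below 0 and 4 above, where 49.1% of all genes were above, with a median of -0.54 beside -0.01 for all genes. The high and low groups did not overlap for 13 members lower in high performers and 1 higher, where 13.8% and 17.2% of all genes behaved this way.

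The promoter sequences of those falling genes are shown where the reference table holds an entry and the window lies outside the gene's own annotated span, because the ETS family factor PU.1 is known to act at microglial promoters. Each is the 250 bases before the RefSeq transcription start in GRCm38.p6, 5′ to 3′ on the gene's strand. The P2ry12 window lies within the span of Med12l on the opposite strand. Capitals mark a searched motif, here the ETS core AGGAAG or its reverse complement CTTCCT.

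P2ry12, chr3:59262986-59263235, minus strand: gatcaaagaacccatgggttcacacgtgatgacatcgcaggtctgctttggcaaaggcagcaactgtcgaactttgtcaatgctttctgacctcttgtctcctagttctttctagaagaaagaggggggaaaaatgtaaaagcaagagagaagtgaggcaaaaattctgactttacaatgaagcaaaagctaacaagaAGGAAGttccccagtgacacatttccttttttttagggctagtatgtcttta

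Itgam, chr7:128062390-128062639, plus strand: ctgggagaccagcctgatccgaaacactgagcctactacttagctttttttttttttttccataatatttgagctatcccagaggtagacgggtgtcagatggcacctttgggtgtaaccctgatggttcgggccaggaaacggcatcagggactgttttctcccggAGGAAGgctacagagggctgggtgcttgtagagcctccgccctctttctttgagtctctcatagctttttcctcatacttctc

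C1qb, chr4:136886201-136886450, minus strand: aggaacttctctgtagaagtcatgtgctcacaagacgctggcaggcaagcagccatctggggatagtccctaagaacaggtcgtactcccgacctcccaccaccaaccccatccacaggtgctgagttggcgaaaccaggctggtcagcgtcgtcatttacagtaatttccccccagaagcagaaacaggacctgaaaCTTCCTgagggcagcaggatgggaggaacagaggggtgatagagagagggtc

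The ETS core was found in 19 of the 35 promoter entries of 27 matched microglial genes (54.3%) and in 29.5% of the 32851 promoter windows of the same length. The longer PU.1 letters GAGGAAGT, which contain that core, were in 1 entry (2.86%, that of C1qc) and in 2.44% of all windows. The ETS-IRF composite element was in 0 of 35 entries and in 2.3% of all windows, and its letters can overlap the ETS core. The TATA box letters TATAAA were in 6 entries (17.1%; Ctss, Fcrls, Irf8, Laptm5, Lgmn and Ptprc) and in 12.4% of all windows. Each motif was searched on both strands. No entry was matched for C1qa, Csf1r, Gpr34, Tmem119, Selplg, Tyrobp, Unc93b1 or Spi1. Some genes have several entries that overlap, and a match is a description of letters only.

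Among the surface receptors and integrins in PFC, Itgam differed most clearly. Its normalized counts in the high performer libraries were 614, 809 and 824, and in the low performer libraries 1467, 1428 and 1563. All high libraries lay below all low libraries, with means of 749 ± 117 and 1486 ± 69.7 (SD, n = 3 each), and the log2 difference was -0.999 ± 0.14 (SE, adjusted p = 0.0185). Itgam lies at chr7:128062640-128118491 (GRCm38, plus strand) and shares part of its span with Gm49368 on the same strand. P2ry12 had 1888, 2247 and 1818 in high performers and 2857, 2972 and 3260 in low performers. These groups also lay apart, with a log2 difference of -0.61 ± 0.11 (SE, adjusted p = 0.0288). P2ry12 (chr3:59216272-59262871) lies within Med12l on the opposite strand, and the sources used here do not give whether counting used strand. Laptm5 had 1289, 1181 and 1481 in high and 1811, 2307 and 2066 in low performers, again with no overlap (log2 difference -0.65 ± 0.13, SE, adjusted p = 0.0389).

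The other identity receptors in PFC did not pass the test. Cx3cr1, the fractalkine receptor, had 1989, 2308 and 2813 in high performers and 2120, 2923 and 2435 in low performers, groups that overlapped throughout. Csf1r had 3852, 4497 and 4802 against 4527, 5528 and 5363, and only the lowest low library fell inside the high range. Tmem119, a membrane protein gene used to mark microglia, had 748, 1040 and 977 against 905, 868 and 934, and the 3 low libraries lay within the range of the high ones. Aif1, which encodes the actin-bundling protein IBA1, was 1 of only 4 members above 0 and the only one whose high libraries (220, 283 and 224) all lay above the low libraries (190, 219 and 217). It did not pass the test (adjusted p = 0.539).

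The C1q genes encode the A, B and C chains of the recognition molecule that starts the classical complement pathway, and all lie in one cluster on chromosome 4. C1qa had 1090, 975 and 1172 in PFC high performers and 1636, 2542 and 1910 in low performers, giving a log2 difference of -0.89 ± 0.17 (SE, adjusted p = 0.034). C1qb had 1097, 744 and 1177 against 1637, 1789 and 1978, giving -0.86 ± 0.19 (SE, adjusted p = 0.0454). C1qc had 1082, 662.5 and 796 against 1142, 1478 and 1338 and did not pass (-0.66, adjusted p = 0.0973). The high and low libraries of each chain lay apart, although the highest high and lowest low library of C1qc differed little.

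Genes of the TREM2, TYROBP and Fc receptor group all had log2 differences below 0 in PFC, and none of the 5 passed. Trem2, a lipid-sensing receptor, had 292, 335 and 465 in high performers and 526, 547 and 528 in low performers (-0.58, adjusted p = 0.128). Tyrobp, its signalling adaptor, had 334, 397 and 450 against 502, 657 and 584 (-0.56, adjusted p = 0.106). High and low libraries did not overlap for either gene. The adaptor gene Fcer1g (-0.62) and the Fc receptor gene Fcgr3 (-0.61) also lay apart without passing. Fcgr3 resembles Fcgr2b in sequence, so its counts are uncertain to that extent. Fcrls, an Fc receptor-like gene, ranged from 109 to 1348 among the low libraries alone.

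Of the transcription factors in PFC, Sall1 had 914, 997 and 1250 in high performers and 1283, 1799 and 1841 in low performers, with no overlap (-0.63, adjusted p = 0.0906). Spi1, which encodes PU.1, had 56.0, 57.8 and 144 against 101, 182 and 221, where 1 high library reached into the low range. Irf8 shares part of its locus with Gm20388 on the same strand, which makes its counts uncertain, and its PFC groups overlapped. Among the lysosomal genes, Mpeg1, which encodes the pore-forming protein perforin-2, had the lowest log2 difference of all members (-1.10, adjusted p = 0.178) with a wide spread in both groups. The groups overlapped for Ctss, Ctsd, Cst3 and Lgmn, which encode lysosomal or secreted proteases and their inhibitor, and for Unc93b1, which carries nucleic acid-sensing Toll-like receptors to endosomes. They also overlapped for P2ry13, Gpr34, Csf3r, Siglech, Selplg, Slco2b1, Ptprc, Cd53, Ly86 and Olfml3.

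**Figure D1:**
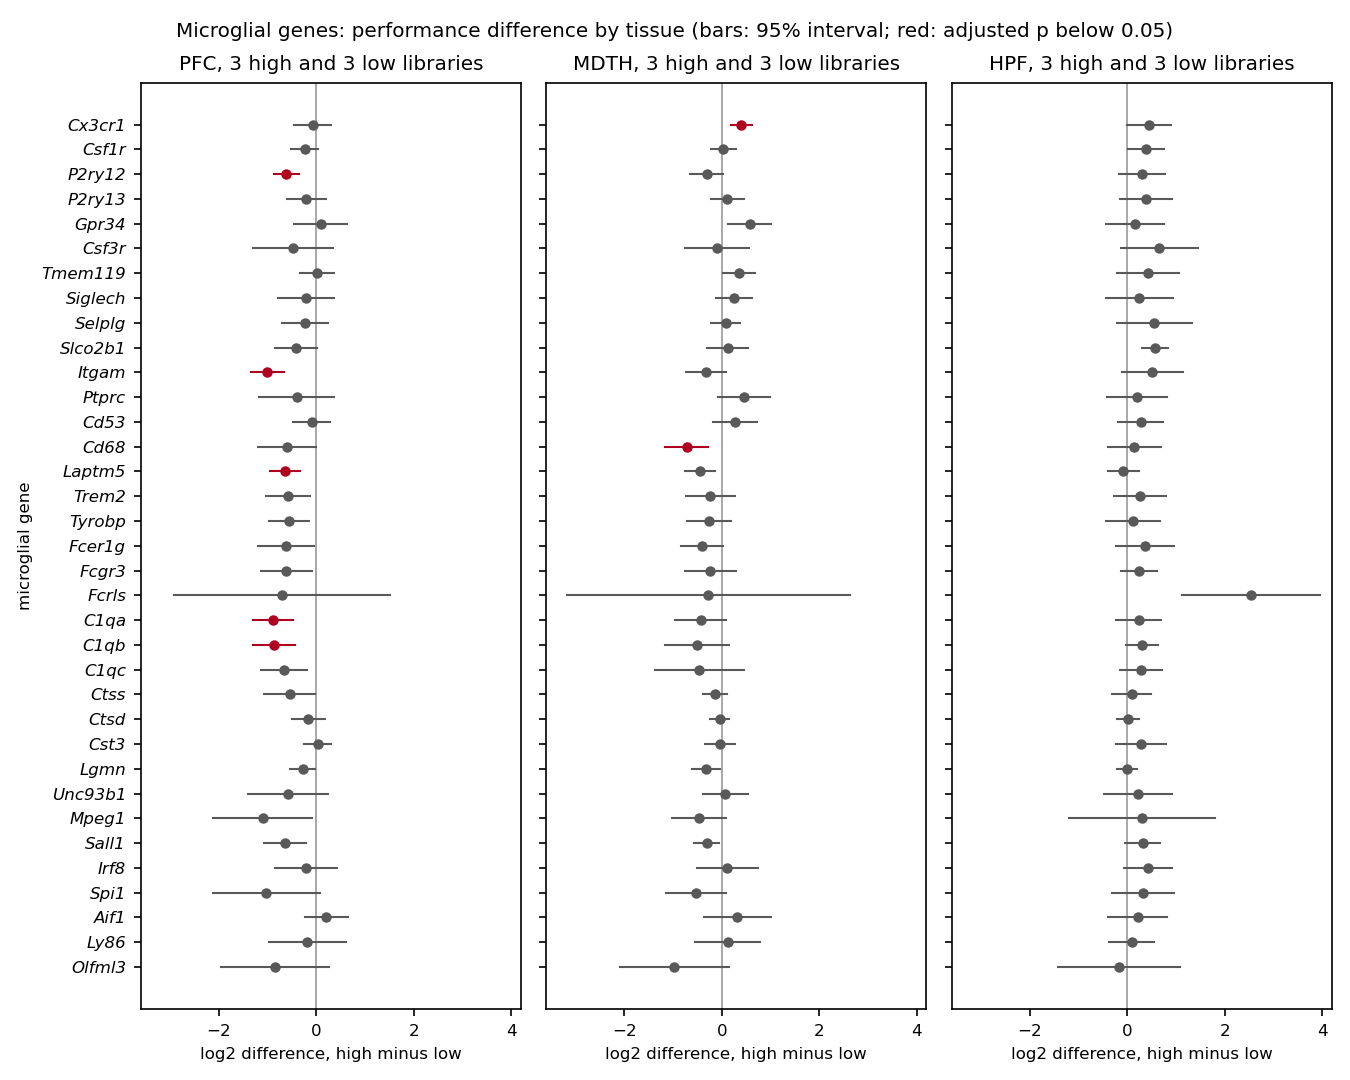
Log2 differences of high minus low performers for the 35 microglial genes in PFC, MDTH and HPF, with points for the fitted difference, bars for its 95% interval and red for an adjusted p under 0.05. In PFC 31 genes lie below 0 and 5 are red, in MDTH 21 lie below 0 and 2 are red, and in HPF 32 lie above 0 and none is red.

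Microglial genes were not the only ones shifted in PFC. All 11 border macrophage genes tested lay below 0 (median -0.77, none passed), and their summed level was 603 to 954 in high and 857 to 2834 in low performers. All 8 choroid plexus genes lay below 0 (median -1.93, none passed). Of 10 endothelial genes, Flt1, a VEGF receptor of vessels, passed (-0.56, adjusted p = 0.0416). The 13 neuronal genes had a median of 0.09, with none passing. The part of these other cell types in the microglial differences was not tested. Low replicate 2 was highest of the PFC libraries in the summed border macrophage level. It was also highest in red blood cell genes (41983.5, against 6039 to 10632 in the others) and oligodendrocyte genes (524720, against 148752 to 326936). The part of these was not tested either. Without low replicate 2 the median of the microglial genes was -0.34. Without the 3 PFC libraries rich in choroid plexus genes, a choice made after seeing the data that leaves 2 high and 1 low library and assumes that the lone low library varies like the high ones, the median of the 35 microglial genes was -0.12, with 20 below 0 and 15 above, and none passed.

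The number of PFC calls depended on the libraries in the fit, while the differences of the 5 genes stayed below 0. With 1 library left out, the log2 difference was between -0.86 and -1.07 for Itgam, -0.55 and -0.71 for P2ry12, -0.72 and -1.03 for C1qa, -0.56 and -0.74 for Laptm5, and -0.66 and -0.99 for C1qb. Leaving out 1 library at a time gave between 0 and 4 passing members: 0 without high replicate 2, without high replicate 3 or without low replicate 3, 1 without high replicate 1 or without low replicate 1, and 4 without low replicate 2. Of the 5 genes, Itgam and C1qa each passed in 2 of these 6 fits, P2ry12 in 1, and Laptm5 and C1qb in 0. In these fits 29 to 33 members were below 0. A fit without the mean-variance trend gave the same differences and 0 passing members. The share of all genes passing in these fits is not given here. Whether the change in count was particular to the members was not tested.

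**Figure D2:**
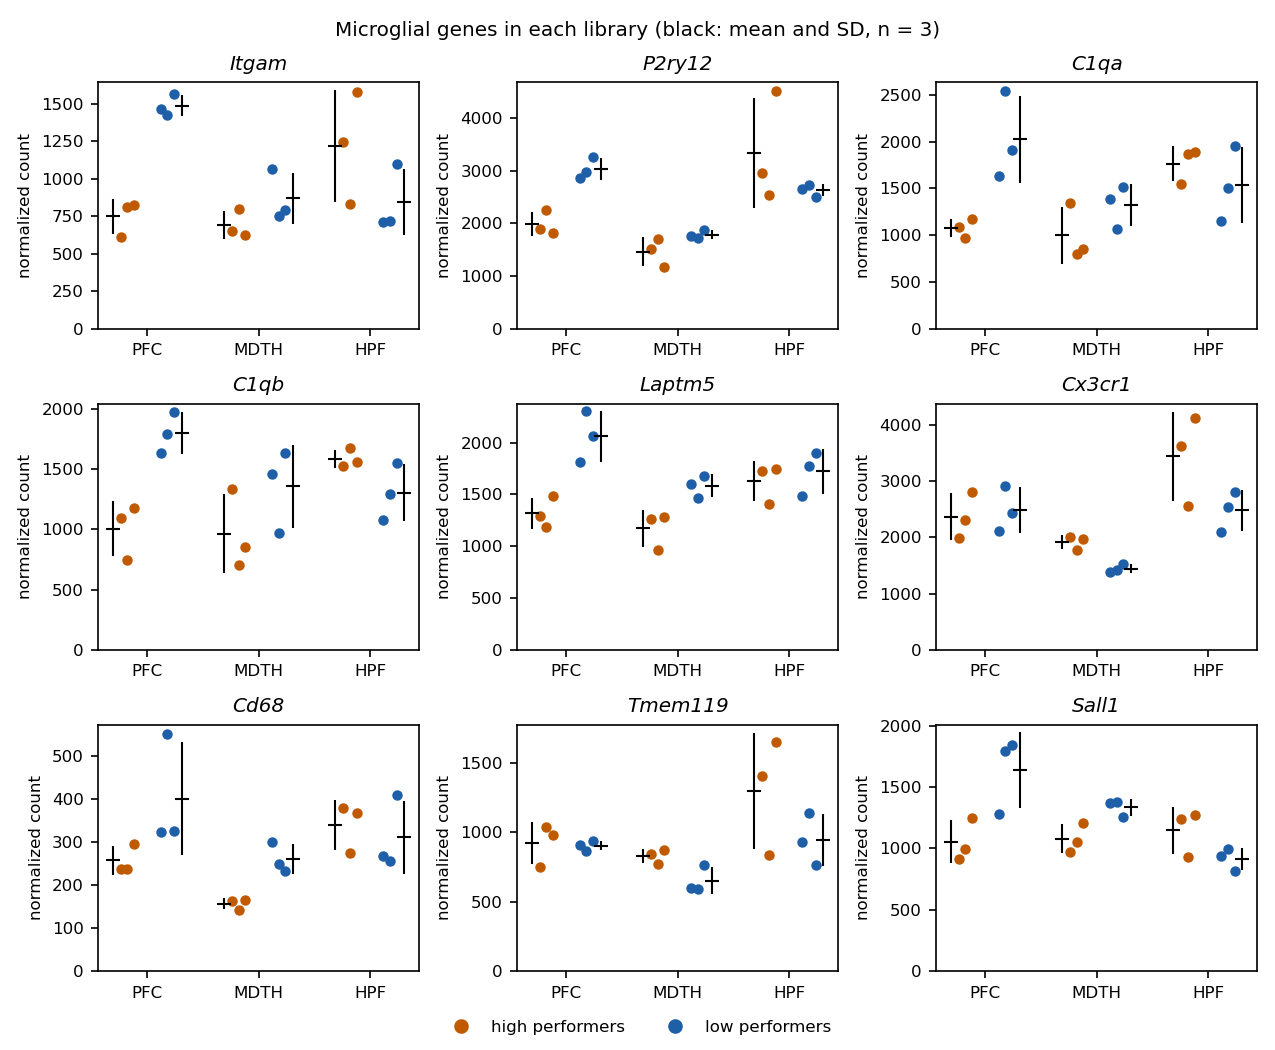
Normalized counts of 9 microglial genes in each of the 18 libraries by tissue, with orange points for high performers, blue points for low performers, and a black tick and bar for the mean and SD (n = 3). Itgam is at 614 to 824 in PFC high performers and at 1428 to 1563 in PFC low performers, whereas in MDTH and HPF its groups overlap.

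In MDTH the microglial genes did not move together. Cx3cr1 rose in high performers and Cd68, a lysosomal glycoprotein gene of phagocytes, fell, each 1 of 35 members, where 25% of all genes tested passed, 12.5% higher and 12.5% lower. An unadjusted p under 0.05 was reached by 7 members and by 39.6% of all genes. The members' median was -0.14 beside 0.00 for all genes, with 14 above and 21 below 0, where 49.8% of all genes were above. The median was -0.09 without high replicate 3 and -0.20 with equal totals. The groups did not overlap for 5 members higher and 7 lower in high performers, where 22.2% and 22% of all genes behaved this way. The share of members called was thus below that of all genes.

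Cx3cr1 had 2003, 1770 and 1967 normalized counts in MDTH high performers and 1387, 1420 and 1530 in low performers, with a log2 difference of 0.40 ± 0.09 (SE, adjusted p = 0.0208). All high libraries lay above all low ones. Its annotated span runs over other genes, among them Gorasp1 on the same strand. Cd68 had 164, 141 and 164 against 299, 248 and 231, with a log2 difference of -0.72 ± 0.19 (SE, adjusted p = 0.0311). Its high libraries all lay below the low ones, as in PFC, where 238, 236 and 296 stood against 324, 552 and 325 without passing.

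Other members close to the threshold in MDTH pointed in both directions. Gpr34, a lysophosphatidylserine receptor gene that lies within Cask, had 476, 464 and 614 in high and 298, 329 and 416 in low performers (0.58, adjusted p = 0.0607). Tmem119 had 843, 772 and 872 against 601, 592 and 760 (0.36, adjusted p = 0.0964), and Ptprc had 166, 127 and 131 against 87.3, 106 and 112 (0.46, adjusted p = 0.177). The high libraries of these genes all lay above the low ones. In the lower direction, Laptm5 had 1264, 966 and 1283 against 1602, 1464 and 1683 (-0.44, adjusted p = 0.0504), and Sall1 had 974, 1056 and 1209 against 1374, 1376 and 1254 (-0.31, adjusted p = 0.0826). The legumain gene Lgmn (-0.32), Fcer1g (-0.40) and P2ry12 (-0.31) also had all high libraries below the low ones without passing. Lgmn had 4722, 5858 and 5556 against 7779.8, 6261 and 6116, Fcer1g had 144, 171 and 162 against 212, 226 and 192, and P2ry12 had 1510.2, 1704 and 1162 against 1757, 1723 and 1880.2.

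The transcription factor gene Spi1 also lay apart in MDTH, with 74.5, 58.1 and 86.0 against 94.2, 98.7 and 122.7, and so did the lectin gene Siglech, higher in high performers with 424, 472 and 387 against 384, 381 and 314. Neither passed the test. The groups overlapped for the genes that follow. Csf1r had 3933, 3258 and 3481 against 3137, 3447 and 3857, and Aif1 had 116, 153 and 83.1 against 107, 84.0 and 83.0. Trem2 had 357, 239.6 and 366 against 409, 317 and 394, and Tyrobp had 393, 386 and 330.0 against 472, 344 and 525. These 4 genes each shared part of their range between the groups. The C1q genes did as well: C1qa had 1343, 793 and 854 against 1389, 1069 and 1513, C1qb 1334, 706 and 856 against 1464, 970.1 and 1636 and C1qc 1308, 437 and 585 against 991, 760.3 and 1160.3. Itgam had 649.6, 796 and 627 against 1065, 754 and 789, and Cd53 had 384, 309 and 267 against 229, 279 and 279.6, again with overlap.

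Leaving out 1 MDTH library at a time gave 0 to 3 passing members. There was no passing member without high replicate 3, low replicate 1 or low replicate 3, and 1 without high replicate 2 or low replicate 2. Cx3cr1 passed in 2 of these 6 fits and Cd68 in 0. Scaling to equal totals gave 5 passing members, 1 higher and 4 lower. These counts too are given without the share of all genes in each fit.

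In HPF no member passed, and 3 of 18082 genes passed at all (0.0166%; 0.0111% higher and 0.00553% lower). Members leaned the other way from PFC: 32 of 35 log2 differences were above 0, where 48.9% of all genes were, with a median of 0.28 beside -0.01 for all genes. The median was 0.15 without high replicate 3 and 0.47 without high replicate 2, with 28 and 34 members above 0. Of the members, 4 had an unadjusted p under 0.05, a level that 13.3% of all genes reached. High libraries lay above low ones for 3 members, Slco2b1, Fcrls and Irf8, as for 8.47% of all genes, and for none did they lie below, as for 11.6%.

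Slco2b1, an organic anion transporter gene, had 934, 822 and 994 in HPF high performers and 602, 623 and 619 in low performers, with no overlap (0.57 ± 0.11, SE, adjusted p = 0.153). Fcrls had 706, 384 and 969 against 51.2, 261 and 96.2, and its log2 difference of 2.54 ± 0.60 (SE) was the highest of all members without passing (adjusted p = 0.193). Csf1r had 5930, 4502 and 7019 against 4095, 4436 and 4564 (0.39, adjusted p = 0.358), where 1 high library lay inside the low range. Cx3cr1 had 3635, 2568 and 4127 against 2098, 2544 and 2816, with the same high library inside the low range. That library, high replicate 2, carries the number 44 and is the one rich in choroid plexus genes, and it had the lowest mean microglial level of the 3 high libraries. Itgam had 1248, 831 and 1577 against 714, 721 and 1097, and P2ry12 had 2962, 2538 and 4513 against 2661, 2728 and 2504. C1qa had 1549, 1864 and 1888 against 1147, 1501 and 1954. The groups of Itgam, P2ry12 and C1qa overlapped, and so did those of the genes that follow. C1qb had 1528, 1672 and 1561 against 1078, 1291 and 1549, and C1qc had 1082, 1662 and 1354 against 927, 1188 and 1245. Trem2 had 676, 389.6 and 661 against 467, 431 and 499, and Tyrobp had 606, 534 and 911 against 517, 578 and 764. In each, at least 1 high library was below the highest low library. Tmem119 had 1404, 838 and 1652 against 928, 1135 and 761, Aif1 had 201, 177 and 309 against 157, 208 and 214 and Laptm5 had 1726, 1403 and 1749 against 1485, 1776 and 1905. The transcription factor genes Sall1, with 1241, 929 and 1276 against 937, 992 and 813, and Spi1, with 158, 93.4 and 149 against 101, 93.9 and 117, overlapped too.

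Other cell types also shifted in HPF. All 11 border macrophage genes lay above 0 (median 0.94, none passed), with summed levels of 1369 to 1678 in high and 571 to 1034 in low performers. All 10 endothelial genes (median 0.56), all 10 astrocyte genes (median 0.38) and all 8 choroid plexus genes (median 1.59) lay above 0, and 10 of 13 neuronal genes lay below 0 (median -0.38). None of these passed, and their part in the microglial values was not tested. HPF libraries were sequenced on several lanes as their names give them, and 1 lane held 1 high and 1 low library. Within that pair 28 of 35 members were above 0, with a median log2 difference of 0.41. Its high library was high replicate 3, which had the highest mean microglial level of the 18 libraries. The other HPF lanes held libraries of 1 performance group only.

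**Figure D3:**
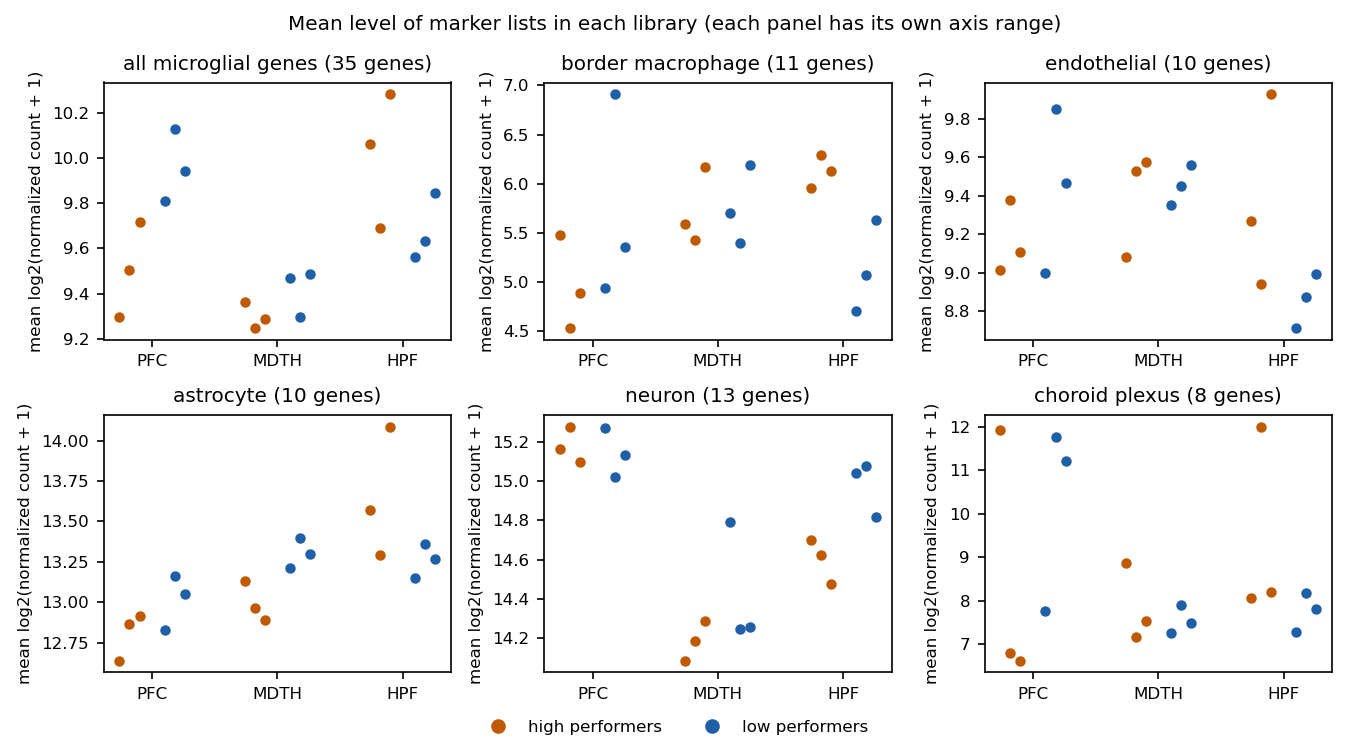
Mean log2(normalized count + 1) of the 35 microglial genes and of 5 marker lists of other cells in each library, in orange for high and blue for low performers, with an axis range per panel. In PFC the microglial mean is 9.30 to 9.72 in high and 9.81 to 10.13 in low performers, border macrophage genes overlap, and 4 of the PFC and HPF libraries stand apart in choroid plexus genes.

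The difference between the performance effects of 2 tissues was tested in a fit of all 18 libraries. All HPF libraries had lanes and a name style of their own and a greater depth, which cannot be told apart from the tissue wherever HPF is compared with PFC or MDTH. For HPF against PFC, 6 of 35 members passed, all with a higher value in HPF, where 9.14% of all genes passed, 3.37% higher and 5.77% lower. An unadjusted p under 0.05 was reached by 18 members and by 24% of all genes. All 35 members were above 0, where 51% of all genes were, with a median of 0.69 beside 0.01 for all genes; with equal totals or with the name number as a block 34 were above 0. Itgam had a difference of 1.51 ± 0.31 (SE, adjusted p = 0.009), Slco2b1 0.98 ± 0.23 (SE, adjusted p = 0.0176) and Sall1 0.95 ± 0.23 (SE, adjusted p = 0.0184). P2ry12 (0.91, adjusted p = 0.0294), C1qa (1.12, adjusted p = 0.0379) and C1qb (1.16, adjusted p = 0.0414) followed. With the number in the library name as a block 8 members passed. Csf1r (0.64, adjusted p = 0.0406) and Fcer1g (0.98, adjusted p = 0.0338) were the additions. The share of all genes passing with this block is not given here, so that count is not a result about the members. Itgam passed in each of 18 fits that left out 1 library, and C1qb in 8 of them. Of these fits 6 left out an MDTH library, which leaves the difference itself unchanged and alters only the estimated spread. The count was 1 without HPF high replicate 3, 2 without PFC low replicate 3, and 3 without PFC high replicate 1, without PFC high replicate 2 or without HPF low replicate 1. In the same contrast 3 border macrophage genes, 3 endothelial genes and 1 astrocyte gene passed higher and 3 neuronal genes lower.

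For MDTH against PFC no member passed in limma, where 3.41% of all genes did (0.871% higher and 2.54% lower). Of the members 31 were above 0, where 52.4% of all genes were, and 3 members had an unadjusted p under 0.05, against 15.7% of all genes: Slco2b1 (0.53), Ptprc (0.86) and Itgam (0.68). For MDTH against HPF no member passed in limma either, where 19% of all genes did (10.5% higher and 8.52% lower). Of the members 5 were above 0, where 48.6% of all genes were. The smallest p-values belonged to Sall1 (-0.63, adjusted p = 0.0666), Cd68 (-0.87, adjusted p = 0.076) and Itgam (-0.83, adjusted p = 0.0771), and 6 members had an unadjusted p under 0.05, against 31.9% of all genes. With the number in the library name as a block, 6 members passed lower in MDTH than in HPF: Sall1, Itgam, Cd68, P2ry12, Fcer1g and C1qb, with adjusted p between 0.0155 and 0.0454. Leaving out 1 library gave 0 to 5 members in that contrast, with 5 without HPF high replicate 2, 4 without MDTH high replicate 1, 2 without MDTH low replicate 2 or HPF low replicate 3, and 1 without PFC low replicate 1 or PFC low replicate 2. The 3 contrasts share libraries, so they are no independent evidence of each other. The shares of all genes given here are from fits without a block and with all 18 libraries. Counts from the other fits are therefore not set against all genes.

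Tissues were then compared in the average over performance. Between MDTH and PFC, 12 of 35 members were lower in MDTH and none higher, where 40.7% of all genes passed (20.4% lower and 20.3% higher), and the median was -0.35 beside 0.00. Aif1 ranged from 83.0 to 153 in the 6 MDTH libraries and from 190 to 283 in the 6 PFC libraries. The libraries of these tissues did not overlap (-1.13 ± 0.17, SE, adjusted p = 7.42e-05). P2ry12 (-0.61, adjusted p = 0.000767), Cx3cr1 (-0.54, adjusted p = 0.00201) and Csf1r (-0.43, adjusted p = 0.00246) fell as well, with ranges that overlapped. Among high performers alone 2 members were lower, and 4 with the number in the library name as a block. Among low performers alone 11 were lower. The shares of all genes above are from the main fit and not from these fits. These counts are therefore not a result about the members.

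Between MDTH and HPF, 23 members were lower in MDTH and 1 was higher, where 58.1% of all genes passed, 29% lower and 29.1% higher (median -0.53 beside -0.02). Lgmn, the asparaginyl endopeptidase of lysosomes, was the exception. It averaged 6049 ± 1009 in MDTH, 5571 ± 784 in PFC and 3599 ± 221 in HPF (SD, n = 6 each), and the libraries of MDTH and HPF did not overlap (0.73, adjusted p = 1.19e-06). P2ry12 averaged 1623 ± 255 in MDTH and 2984 ± 766 in HPF (-0.86, adjusted p = 1.69e-05). Gpr34 averaged 433 ± 114 and 982 ± 234 (-1.19, adjusted p = 2.63e-05), and Cx3cr1 1680 ± 272 and 2965 ± 762 (-0.80, adjusted p = 3.47e-05). The MDTH libraries of these receptor genes all lay below the HPF libraries. Among low performers alone 2 members were higher and 10 lower, and the share of all genes passing in that fit is not given here.

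Between HPF and PFC, 5 members were higher in HPF and 3 lower, where 45.5% of all genes passed, 21.8% higher and 23.7% lower (median 0.13 beside 0.01). The median was 0.56 among high performers alone, with 32 of 35 members above 0, and -0.24 among low performers alone, with 28 below 0. It was 0.03 without HPF high replicate 3, 0.06 without HPF low replicate 3 or PFC high replicate 1, 0.08 without PFC low replicate 1, and 0.23 without PFC low replicate 2. With equal totals it was 0.22, where that of all genes was 0.10. Cst3 (0.71, adjusted p = 0.000299), the tetraspanin gene Cd53 (0.48, adjusted p = 0.00594) and Ly86, a partner of the receptor CD180 (0.80, adjusted p = 0.00678), were higher in HPF. Lgmn was lower (-0.62, adjusted p = 1.35e-05). Among high performers alone 8 members were higher in HPF and 1 lower, and with the number in the library name as a block 19 were higher and 1 lower. Among low performers alone 2 were higher and 4 lower. The share of all genes that passed in these fits of part of the libraries is not given here. Their counts are therefore not a result about the members.

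**Figure D4:**
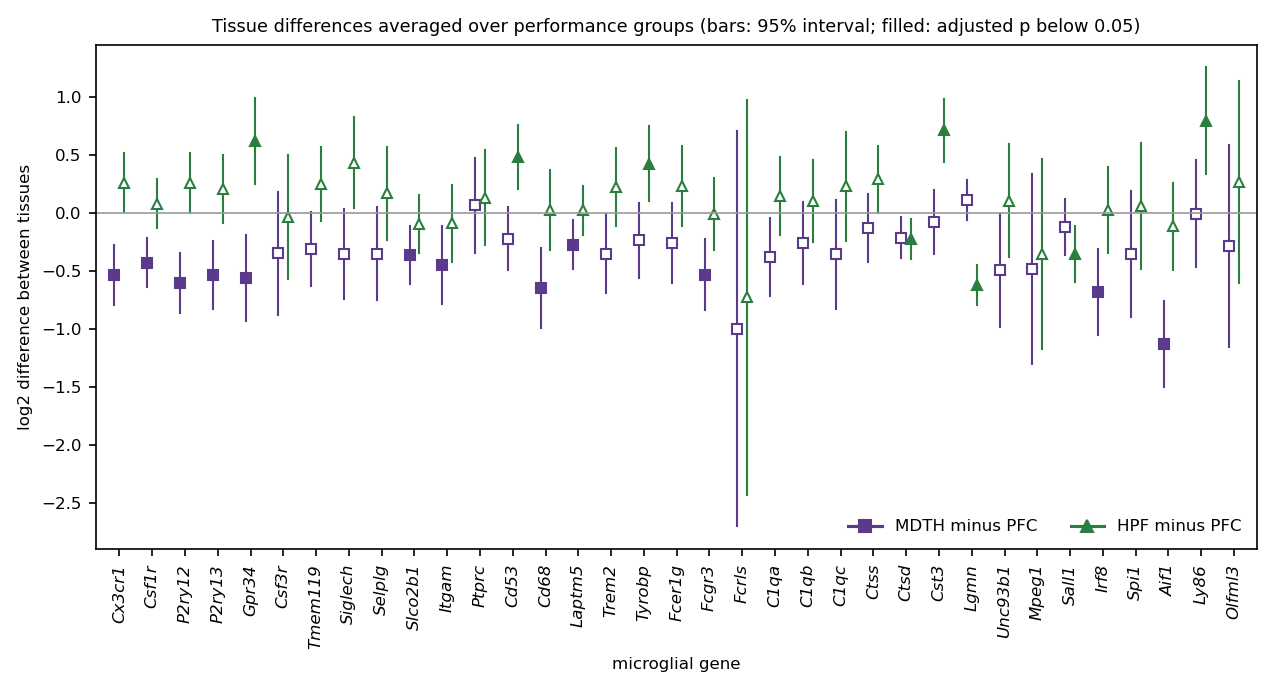
Log2 differences between tissues for the 35 microglial genes, averaged over performance, as squares for MDTH minus PFC and triangles for HPF minus PFC, with 95% intervals as bars and filled symbols for an adjusted p under 0.05. Filled squares are all below 0 and number 12, with Aif1 lowest at -1.13, and filled triangles lie on both sides, with Lgmn lowest at -0.62.

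Some members also differed between the numbers in the library names. This was looked at after the values had been seen, and only among high performers, so the number was not set against performance. Pairs of libraries from different tissues and the same performance group, high or low, were compared in their deviations from the group means over all genes. Those that share a number correlated with r of 0.35 to 0.61 in 11 pairs. The 43 pairs with different numbers had a median of -0.18 and reached 0.31. Removing the group means itself pushes pairs with different numbers below 0 where same-numbered pairs correlate. Among the 9 high performer libraries, with tissue in the fit, 5 of 35 members differed between the numbers 44, 88 and 165 in limma's F-test (14.3%), as did 7.38% of all genes. The numbers stood in the same order in all 3 tissues for 5 members (14.3%), near the 11.1% of all genes. Number 44 also had the highest summed choroid plexus level among the high performers of each tissue. That level was 217445 in PFC, 25234 in MDTH and 227382 in HPF, and it cannot be told apart from number 44. Mpeg1 was lowest for number 44 in every tissue, with 438 in PFC, 501 in MDTH and 608 in HPF, against 775 to 1490 for the others (adjusted p = 0.00294). Olfml3, a secreted olfactomedin-like protein gene, was lowest for number 88, with 237, 198 and 473 in PFC, MDTH and HPF, against 516 to 1244 for the others (adjusted p = 0.00469). The granulocyte colony-stimulating factor receptor gene Csf3r (adjusted p = 0.0229), the P-selectin ligand gene Selplg (adjusted p = 0.0341) and Fcrls (adjusted p = 0.0461) also passed.

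Fcrls varied widely among the low performer libraries. Only the numbers 130 and 163 recur among them, and the number was not tested there. Fcrls had 25.2 in MDTH and 51.2 in HPF for number 163, 109 in PFC low replicate 2 and 96.2 in HPF for number 179. In HPF it had 261 for number 168. Higher values were 1348 in PFC and 791 in MDTH for 130, 1185 in PFC for 65 and 679 in MDTH for 6. The 3 HPF low libraries carry the numbers 163, 168 and 179, none of which is in PFC, and the part of the number in the HPF difference of Fcrls was not tested.

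**Figure D5:**
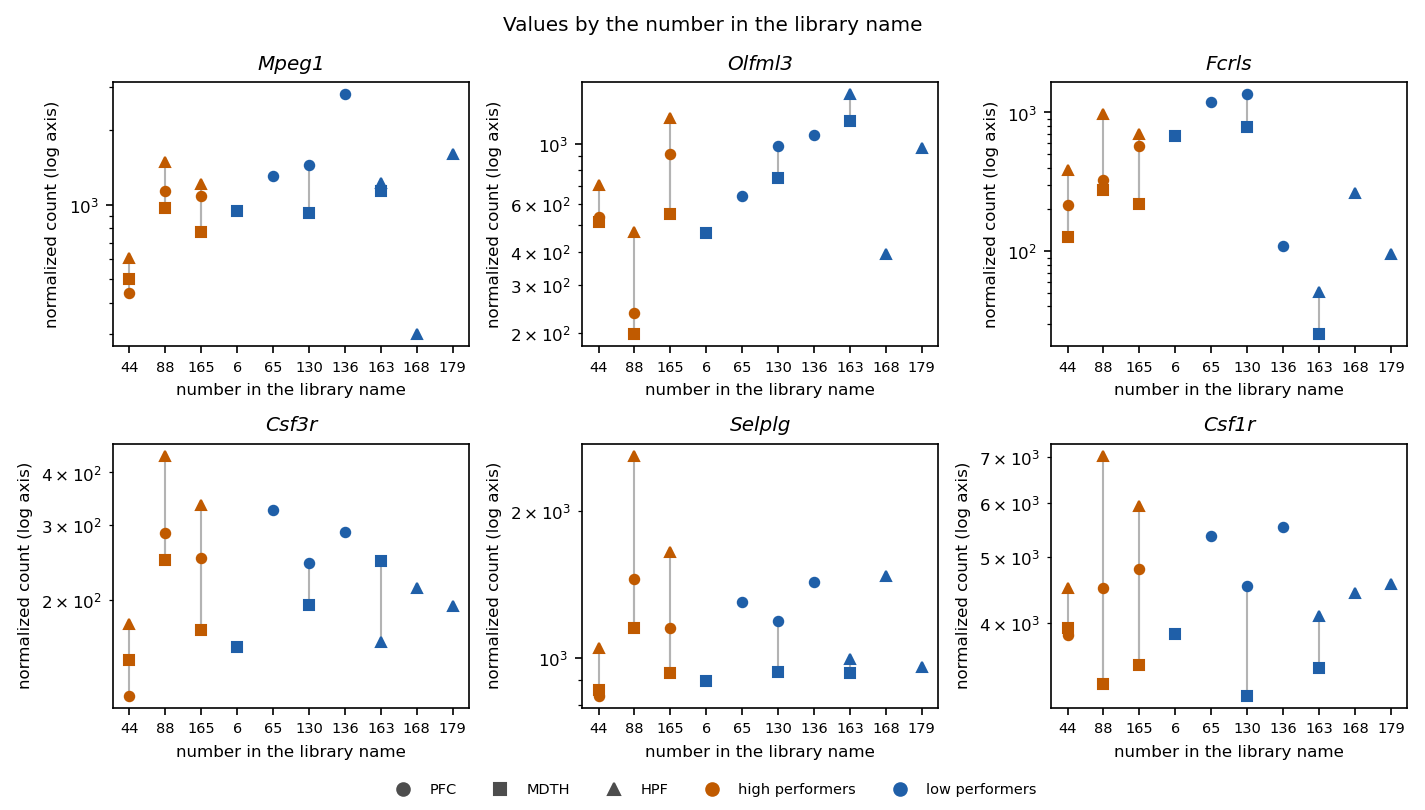
Normalized counts on a log axis of 6 microglial genes by the number in the library name, with circles for PFC, squares for MDTH, triangles for HPF, orange for high and blue for low performers, and lines joining libraries with the same number. Mpeg1 is lowest among high performers for 44 and Olfml3 for 88 in every tissue, and Fcrls spans 25.2 to 1348 among low performers.

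Members also varied together from library to library. After the group means were removed, the median correlation over 595 pairs of members was 0.37 across the 18 libraries, with 503 pairs above 0, which is a description of libraries that share depth, tissue composition and, in part, a number. Cx3cr1 had the highest mean correlation with the other members (0.56) and correlated with Csf1r at 0.90. C1qa, C1qb and C1qc correlated with each other at 0.82 to 0.85. Their mean correlation with all other members, the other C1q genes included, was 0.31, 0.15 and 0.05. Olfml3 (-0.04) and Fcrls (0.01) had mean correlations near 0. Because members varied together, the counts of members above or below 0 in each comparison are not counts of independent genes.

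Genes around the microglial pathways were given by lists chosen with earlier results of these data known. In PFC, where 5.85% of all genes passed, 1 of 19 further microglial receptor genes did, which is near that share. It was Cd33, a sialic acid-binding inhibitory receptor, whose high libraries had 168, 179 and 155 and whose low libraries had 346, 697 and 362 (-1.40, adjusted p = 0.0405). Of 12 further transcription factor genes, Smad3, which carries TGF-beta signals, was lower in high performers, with 3049, 2646 and 3180 against 4730, 4489 and 4685 (-0.65, adjusted p = 0.0185), and Bhlhe41 also fell (-0.90, adjusted p = 0.046). None of 11 ligand genes passed in PFC.

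The genes of the CSF1R ligands, Il34 and Csf1, were looked at in each tissue. Il34 had 403, 251 and 271 in MDTH high performers and 628, 722 and 608 in low performers (-1.11, adjusted p = 0.0113), and Csf1 had 711, 543 and 493 against 979, 1387 and 1419 (-1.11, adjusted p = 0.0101). Both fell in MDTH with no overlap, while Csf1r overlapped between the groups. In HPF, Il34 had 1372, 934 and 685 against 2888, 2839 and 1806, which lay apart but did not pass (-1.36, adjusted p = 0.166). In PFC it had 2519, 2627 and 3026 against 2832, 2004 and 2539 and overlapped. The Il34 effect was lower in HPF than in PFC (-1.52, adjusted p = 0.0142), and its difference between MDTH and PFC (-1.27, adjusted p = 0.0576) or HPF (0.25, adjusted p = 0.667) did not pass. Csf1 had 729, 749 and 817 against 905, 2080.3 and 1062 in PFC, which lay apart without passing (-0.72, adjusted p = 0.19), and 1580.1, 1396 and 1846 against 1749.8, 1623 and 1683 in HPF, which overlapped. The Csf1 effect was lower in MDTH than in HPF (-1.03, adjusted p = 0.045) and did not pass the test of the difference from PFC (-0.39, adjusted p = 0.675). The fractalkine gene Cx3cl1 did not pass in any tissue, with adjusted p of 0.9 in PFC, 0.167 in MDTH and 0.907 in HPF. In MDTH, where 25% of all genes passed, 1 of 11 ligand genes rose, Cd47, which encodes a signal against phagocytosis (0.82, adjusted p = 0.00855), and 4 fell, Csf1, Il34, Apoe and Tgfb2. Of 18 receptor genes there, a share below that of all genes passed: Sirpa, the CD47 receptor (-0.54, adjusted p = 0.0135), and Cd33 (-0.65, adjusted p = 0.032) fell.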

How the data were processed

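Bulk RNA-seq was analysed from 18 libraries (3 tissues, 2 performance groups, 3 libraries each). Per the labels' protocols, libraries were made with a stranded mRNA kit. STAR, Salmon and DESeq2 are named in the submitters' processing notes, with no versions or roles; not given in the sources used here are the genome build and whether counting used strand. The deposited table holds the authors' normalized counts, a signal that is not whole numbers. Whole reads could not be recovered (27.1% to 71.7% of values were whole multiples within 0.02), so count tests were not used, and depth is an estimate from the steps between low values.

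The 35 genes were matched by symbol, and all symbols equal those of GENCODE M21 (GRCm38), from which exon lengths were taken; 99.2% of gene IDs were in it. Values were tested as log2(normalized count + 1) with limma 3.58.1 (R 4.3.3), trended variance, on genes with a mean of at least 10, with Benjamini-Hochberg adjustment over all genes tested and a threshold of 0.05, after a test on simulated data. Log2 differences understate changes of low genes. Performance was tested within each tissue, and tissue differences and interactions in a fit of all 18 libraries. Same-numbered libraries correlated over 0.1 in 11 of 11 pairs, and differently numbered ones of the same performance group in 5 of 43. The number in the library name was therefore taken as pairing tissues, but only in alternative fits. The main tissue and interaction fits used no block. Alternatives were other pseudocounts, filters and scalings, no trend, blocks and leaving out each library. By rule, values in every library were given for 12 set markers (Cx3cr1, Csf1r, P2ry12, Tmem119, Aif1, Trem2, Tyrobp, the C1q genes, Sall1 and Spi1), for members that passed in PFC, and in the tissue concerned for those with the smallest p in MDTH and HPF; each interaction named 3 members, each tissue difference 4, and each other list at most 3 genes. Genes named beyond this, such as Mpeg1, Olfml3, Fcrls in PFC and MDTH, and Cx3cl1, were chosen after their values were seen, as were the test of the name number and the fit without choroid-rich libraries. The members and lists were chosen with earlier results of these data known. Promoters came from a RefSeq table (GRCm38.p6), and protein sequences were not used here.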

Additional observations from a re-analysis of the deposited data

Results flagged for a closer look

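Chosen because the effect of performance differed between HPF and PFC by a test of the difference itself, 6 microglial genes are listed here with the log2 difference of the effects (HPF minus PFC). Itgam had 1.51, Slco2b1 0.98, Sall1 0.95, P2ry12 0.91, C1qa 1.12 and C1qb 1.16. For Itgam, P2ry12, C1qa and C1qb the PFC effect itself passed the test and the HPF effect did not, while for Slco2b1 and Sall1 neither did.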

How the results depend on the processing

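The count of passing members in PFC (5) was 0 without the mean-variance trend, 0 with the title number as a replicate block, 0 without the 3 libraries rich in choroid plexus genes, and 0 to 4 when 1 library was left out. In MDTH (2) it was 5 with equal totals, 0 with the title-number block, and 0 to 3 when 1 library was left out. High and low libraries with the same title number correlated between -0.13 and 0.09, so they share only a number. For MDTH against HPF (0) the count was 1 with equal totals, 1 with equal upper quartiles, 6 with the name number as a replicate block, and 0 to 5 when 1 library was left out. For HPF against PFC (6) it was 1 to 9 when 1 library was left out. For MDTH minus PFC (12) it was 2 in high performers only and 4 in high performers with the name-number block. It was 12 for MDTH minus HPF (24) in low performers only, and 20 for HPF minus PFC (8) in high performers with the name-number block. The cause of these changes was not tested, other than the fewer libraries in some fits. The block changed no other count by over 1.5 times. The share of all genes that passed is given for the main fits only. Whether these changes were particular to the members was not tested. Of 1047 refitted values of the named genes none changed direction, 95 lost their call and 21 gained one. Many of these genes were named for a small p-value, which makes a change of direction unlikely from the start. Some of the fits left out a library of a tissue outside the comparison, which cannot change the difference. The unchanged direction is therefore no measure of stability. Other members did change sign: HPF minus PFC had 25 of 35 above 0 and only 7 in low performers alone, and PFC had 4 above 0 and 15 without the choroid-rich libraries.

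With 3 libraries a group and depth known only as an estimate, a member that missed the threshold is not shown to be equal between groups. The other scalings moved the median of all genes most, from 0.02 to -0.09 on the log2 scale, for MDTH against PFC with equal totals.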
